A study of Mus musculus with 27 samples.

Results

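The 10 genes described here encode neuronal RNA-binding proteins that regulate splicing and mRNA fate: Elavl2, Elavl3, Elavl4, Rbfox1, Rbfox2, Nova1, Nova2, Msi1, Msi2 and Celf4. They were taken by symbol from the 19301 genes on the array that had a symbol of their own, and each had 1 probe set. The series holds 27 mouse gene arrays in 9 groups of 3, and each array measured RNA of 200 fluorescent cells sorted out of adult retinas. The first group held Arc amacrine cells from the line Tg(Arc-EGFP)194Gsat/Mmcd, which the study used as an internal control between batches. The titration held starburst amacrine cells (interneurons that release acetylcholine and GABA) from 129S6-Chat_tm1(cre)Lowl/J mice crossed with the reporter Rosa26-LSL-RFP, and cone photoreceptors from the line Tg(Chrnb4-EGFP)1Gsat. Its 5 groups held 0, 50, 100, 150 and 200 cones, and starburst cells made up the rest of the 200. Another 3 mixtures of the same kinds of cells, called X mixtures, held 75, 157 and 183 cones. RFP marked cells in which Chat-driven Cre had been active, and EGFP marked cells by the Chrnb4 or Arc transgene, so each cell type is defined by its reporter.

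All 9 groups carry the label of a mixed FVB/N-Swiss Webster and C57BL/6J background. The lines obtained from a repository carried a recessive mutation that causes loss of photoreceptors and had been backcrossed before use. Cone and starburst cells, and likewise Arc cells, came from different lines, so cell type and line cannot be told apart. For each titration series 2 cone-line and 6 starburst-line retinas were pooled, and the sorts were repeated with other mice to give the 3 arrays of a group. Array levels are log2 values, and the 3 arrays per group limit the precision of all comparisons. A change in a mixture cannot separate fewer cells of a type from less RNA per cell.

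The labelled cell types were checked against marker lists, as means of log2 levels. The mean over 10 cone markers was 3.83, 2.93 and 3.04 on the Arc arrays, 9.04, 9.03 and 7.61 on the pure cone arrays, and 3.63, 4.26 and 3.13 on the pure starburst arrays. The mean over 8 starburst markers was 2.68 to 2.99 on Arc arrays, 3.00 to 3.26 on pure cone arrays and 6.18 to 6.46 on pure starburst arrays. The mean over 9 general amacrine markers was 5.68 to 5.75 on Arc arrays, 3.55 to 4.02 on pure cone arrays and at least 4.81 on pure starburst arrays, all of which lay below the Arc arrays. Chat itself was dim, at 2.71 to 3.04 on Arc arrays, 2.87 to 3.21 on pure cone arrays and 3.81 to 4.58 on pure starburst arrays. Slc18a3, also a starburst marker, was at 2.84 to 3.25, 2.81 to 3.56 and 10.59 to 10.77 in the same order. Some arrays stood apart from their groups. The third pure cone array had 7.34 over 10 rod markers, against 6.20 and 6.02 on the others, and 4.68 over 9 bipolar markers, against 3.87 and 3.88. The third array with 183 cones likewise had 7.17 over the rod markers (5.76 and 6.10 on the others). The third arrays with 75, 150, 157 and 183 cones also had lower cone marker means than their replicates. The second pure starburst array had 4.44 over the bipolar markers, against 3.65 and 3.61.

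Neuronal RNA-binding proteins choose exons and set the lifetime and translation of mRNAs. Elavl proteins, also called Hu proteins, bind U-rich and AU-rich stretches and stabilise many neuronal mRNAs. Rbfox proteins bind UGCAUG and Nova proteins bind clusters of YCAY beside regulated exons, and both promote or block an exon depending on where they sit. Musashi proteins, named after a Drosophila mutant, bind UAG and in vertebrate photoreceptors promote exons particular to these cells, while Celf proteins bind GU-rich RNA. The values here are gene levels, so they show how much mRNA of a regulator was measured and not how any exon was spliced.

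Promoter windows are shown for Elavl3 and Rbfox1, which were both lower in cones, and for Elavl4, which was high in Arc cells. They are the RefSeq entries of GRCm38.p6 for the outermost start of each gene, from 250 bases before to 50 bases after it, 5′ to 3′ on the gene's strand. Entries were matched for 7 of the 10 genes. The window of Elavl3 lies at chr9:22051974-22052273 (minus strand), that of Elavl4 at chr4:110351862-110352161 (minus strand) and that of Rbfox1 at chr16:5884543-5884842 (plus strand). Capitals mark matches, on either strand, to the E-box CAGCTG, the photoreceptor homeodomain site TAATCC, the CCAAT box, the GC box GGGCGG or the TATA box TATAAA.
Elavl3: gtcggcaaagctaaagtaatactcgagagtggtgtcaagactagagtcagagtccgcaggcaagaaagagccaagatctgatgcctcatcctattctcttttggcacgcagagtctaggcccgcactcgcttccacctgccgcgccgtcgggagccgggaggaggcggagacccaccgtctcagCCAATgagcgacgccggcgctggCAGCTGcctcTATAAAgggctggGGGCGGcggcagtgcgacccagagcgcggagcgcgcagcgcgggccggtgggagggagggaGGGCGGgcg
Elavl4: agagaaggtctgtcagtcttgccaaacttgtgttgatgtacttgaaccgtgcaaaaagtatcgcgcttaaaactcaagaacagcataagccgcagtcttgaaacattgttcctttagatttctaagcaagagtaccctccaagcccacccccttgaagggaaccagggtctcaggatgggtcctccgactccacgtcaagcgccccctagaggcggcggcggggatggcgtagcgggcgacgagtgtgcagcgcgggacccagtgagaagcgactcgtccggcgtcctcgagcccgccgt
Rbfox1: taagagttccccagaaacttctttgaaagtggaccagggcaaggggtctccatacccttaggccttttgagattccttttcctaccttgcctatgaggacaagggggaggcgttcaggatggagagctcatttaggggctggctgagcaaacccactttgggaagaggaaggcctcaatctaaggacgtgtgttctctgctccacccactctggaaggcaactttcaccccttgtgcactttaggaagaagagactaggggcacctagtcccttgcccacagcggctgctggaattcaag
The Elavl3 window held 1 CCAAT box, 1 E-box, 1 TATA box and 2 GC boxes. The windows of Elavl4 and Rbfox1 held none of these letters. Over 27025 promoters of the same length, 38.0% held the CCAAT box, 35.9% the GC box, 16.1% the E-box, 14.2% the TATA box and 7.15% the homeodomain site. GC content was 65.3% in the Elavl3 window, 57.0% in that of Elavl4 and 52.7% in that of Rbfox1. The table lists 4 starts for Elavl4 and 2 for Rbfox1, which lie 1185042 bases apart, and a gene-level value does not tell which was used.

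A gene was tested if its level exceeded 2.83, the median of all values, on at least 3 arrays, which 12441 genes did. This left 9 of the 10 genes. Elavl2, a neuronal Elavl paralog, was not tested, since 1 of its 27 arrays exceeded the median. It read 2.84, 2.70 and 2.50 on the Arc arrays and lay between 2.12 and 2.65 on the other 24. Elavl4 exceeded the median on all 3 Arc arrays and on 3 others, and Nova1 on 7 arrays, which included all 3 pure starburst arrays. Both thus passed partly through groups in which they were high. Counts over the 9 genes are therefore descriptions. Genes were called at a limma adjusted p under 0.05 (Benjamini-Hochberg over the 12441 genes) whose log2 fold change was also 1 or more in size. Fold changes are given ± SE (n = 3 arrays per group), from 1 fit to all 27 arrays.

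**Figure D1:**
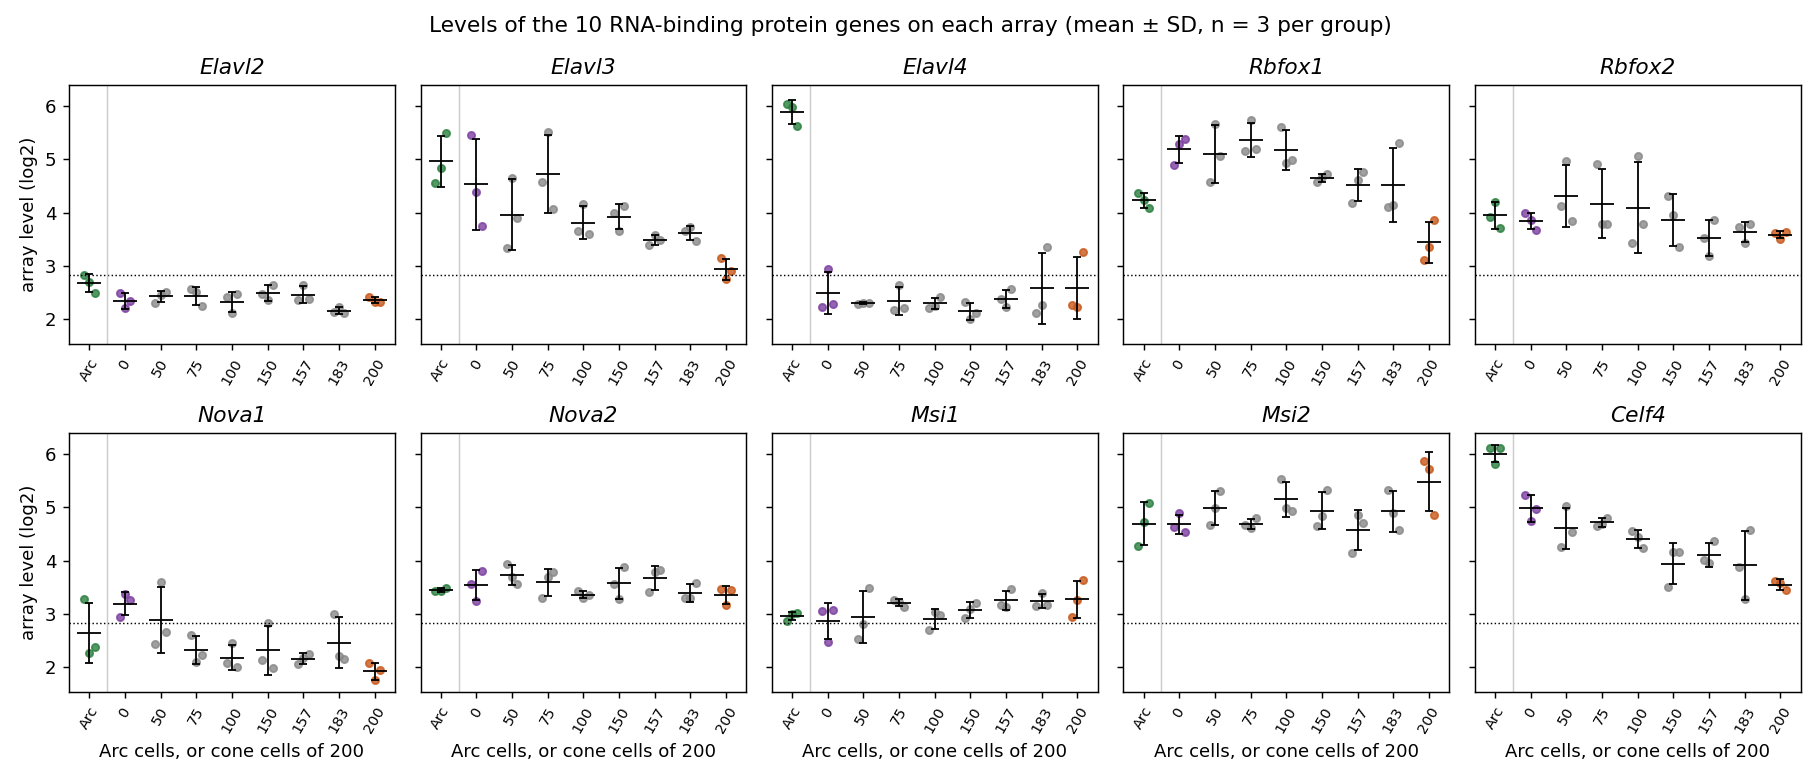
Array levels (log2) of the 10 genes, with 1 panel per gene. Points are arrays, bars the mean ± SD of 3 arrays, and the dotted line the median of all values (2.83); groups run from Arc amacrine cells (green) through pure starburst (violet, 0 cones) and the mixtures (grey) to pure cones (orange, 200). Elavl4 stands at 5.62 to 6.03 on the Arc arrays and at 3.35 or less on the others, while Nova2 and Msi1 vary little.

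Between the ends of the titration, the question was which regulators mark amacrine interneurons rather than cones. In pure cones, against pure starburst cells, 4 of the 9 tested genes were lower, none was higher and 5 were not called. These were Rbfox1, Elavl3, Celf4 and Nova1, 1 from each of 4 families. Among all tested genes limma called 5.79% lower, 2.64% higher and 8.42% in either direction. The median log2 fold change was -0.26 over the 9 genes and -0.04 over all tested genes. Lists of general splicing factors, counted further below, had medians from -0.27 to -0.13 in this comparison. In Arc cells against starburst cells, 2 of the 9 were higher and none lower, where 2.16% of all genes were higher, 1.39% lower and 3.55% called in all. These were Elavl4 and Celf4, and the medians were 0.09 over the 9 genes and 0.03 over all. In Arc cells against cones, 3 of the 9 were higher and none lower, where 7.83% of all genes were higher, 2.51% lower and 10.3% called in all. These were Elavl4, Celf4 and Elavl3, and the medians were 0.72 and 0.07. The comparisons share arrays pairwise, so they are not independent of each other.

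**Figure D2:**
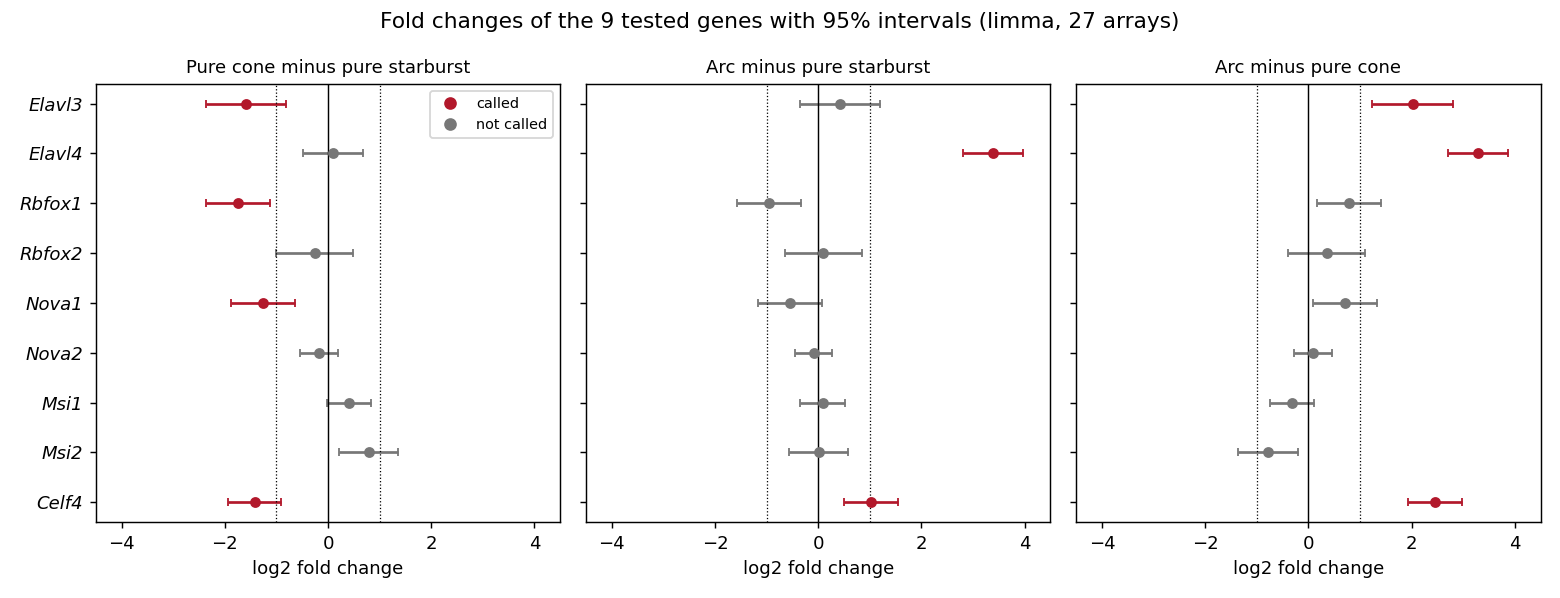
Log2 fold changes of the 9 tested genes with 95% intervals from limma in 3 comparisons, with red for called and grey for not called genes and dotted lines at -1 and 1. Rbfox1, Elavl3, Celf4 and Nova1 lie left of -1 for cones against starburst cells, and Elavl4 lies above 3 in both comparisons of Arc cells.

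Elavl4, known as HuD and a stabiliser of growth-associated mRNAs, separated the Arc cells from both other cell types. It read 6.03, 5.98 and 5.62 on the Arc arrays, 2.26, 2.24 and 3.27 on the pure cone arrays, and 2.23, 2.95 and 2.30 on the pure starburst arrays. The Arc arrays did not overlap with any other array, since the highest of the other 24 was 3.35. The log2 fold change was 3.38 ± 0.28 in Arc against starburst cells (limma adjusted p = 1.53e-08) and 3.29 ± 0.28 in Arc cells against cones (1.93e-08). Both were called under all alternatives tried, with values between 3.05 and 3.63. On the linear scale Elavl4 was 10.4-fold higher in Arc than in starburst cells. This size depends on the array background, because both other means lay under 2.83. For markers of retinal ganglion cells, the output neurons of the retina, the mean was also higher on the Arc arrays. Their mean over 9 measured markers was 3.31 to 3.36 on the Arc arrays, 2.90 to 3.17 on the pure cone arrays and 2.77 to 3.06 on the pure starburst arrays. Of these markers 5 lay above 2.83 on each Arc array, 4 to 5 on the pure cone arrays and 3 to 5 on the pure starburst arrays. Of the 5 that were tested, limma called Thy1 alone, a surface protein named here after its values were seen. Thy1 was higher by 2.52 ± 0.37 in Arc against starburst cells (adjusted p = 7.66e-05) and by 2.33 ± 0.37 in Arc cells against cones (8.1e-05). The other tested markers were not called in Arc cells against cones, with 0.83 for Nefm, 0.60 for Nefh, 0.23 for Nefl and -0.27 for Sncg. The mean over the 9 markers includes Thy1. Rbpms, Pou4f1, Pou4f2, Pou4f3 and Slc17a6, which define ganglion cells, were not among the tested genes. Those of them that were measured exceeded 2.83 on fewer than 3 arrays. The part of ganglion cells in the level of Elavl4 was not tested.

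Cones and starburst cells were not told apart by Elavl4, with 2.59 ± 0.59 in pure cones and 2.49 ± 0.40 in pure starburst cells (SD, n = 3 each). The difference of 0.09 had a 95% interval from -0.49 to 0.67 (adjusted p = 0.882). Outside the Arc group, 3 arrays exceeded the median. They were the third array with 183 cones at 3.35, the third pure cone array at 3.27 and the second pure starburst array at 2.95. Each of these had both the highest bipolar and the highest rod marker mean of its group. The same held for the third arrays with 50, 150 and 157 cones (bipolar marker means 4.36, 4.52 and 4.33). Elavl4 lay under the median on each of them. It was the highest of its group on the array with 157 cones (2.56), but not on those with 50 and 150. The part of other cells in these values was not tested.

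Elavl3, known as HuC and a widely used label of neurons, was at its lowest in cones. It read 4.55, 4.83 and 5.49 on the Arc arrays, 3.15, 2.76 and 2.90 on the pure cone arrays, and 5.44, 4.39 and 3.76 on the pure starburst arrays. All 3 cone arrays lay below every Arc and starburst array, and the Arc and starburst arrays overlapped. The log2 fold change was -1.59 ± 0.37 in cones against starburst cells (adjusted p = 0.00523) and 2.02 ± 0.37 in Arc cells against cones (4.91e-04). Between Arc and starburst cells it was 0.43, with an interval from -0.35 to 1.20 (0.692). The starburst arrays were spread widely (SD 0.85). Without the first of them, the fold change in cones against starburst cells was -1.14 (0.0509), and in a fit of these 2 groups alone its adjusted p was 0.0601, so this call depends on those choices.

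In the order of group means, Elavl3 ran from 4.96 in Arc cells through 4.72 with 75 cones and 4.53 in pure starburst cells to 2.94 in pure cones. Of the 8 steps between neighbouring groups, 1 was free of overlap, that from 157 cones (3.39, 3.57 and 3.48) to pure cones. Elavl1, the paralog found in most tissues, was called in none of the 3 comparisons and had log2 fold changes of -0.23 in Arc against starburst cells, -0.05 in Arc cells against cones and -0.18 in cones against starburst cells.

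Rbfox1, a splicing regulator of ion channel and synaptic transcripts, was highest in starburst cells and intermediate in Arc cells. It read 4.37, 4.24 and 4.09 on the Arc arrays, 3.12, 3.35 and 3.86 on the pure cone arrays, and 4.89, 5.28 and 5.37 on the pure starburst arrays. None of the 3 groups overlapped with another. In cones against starburst cells the log2 fold change was -1.74 ± 0.30 (adjusted p = 2.94e-04), and it was called under all 13 alternatives, from -1.95 to -1.57. Arc cells differed by -0.95 ± 0.30 from starburst cells (0.0691) and by 0.79 ± 0.30 from cones (0.0744), and neither was called. Without the third arrays of groups with cones the Arc against cone difference had an adjusted p of 0.0314 and still lay just under the fold threshold.

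Rbfox2, a more widely expressed paralog, was called in no comparison. It read 3.92, 4.20 and 3.71 on the Arc arrays, 3.62, 3.51 and 3.63 on the pure cone arrays, and 3.99, 3.87 and 3.68 on the pure starburst arrays. The cone arrays lay just below all Arc and starburst arrays, and the Arc and starburst arrays overlapped. The fold change in cones against starburst cells was -0.26, with an interval from -1.01 to 0.49 (adjusted p = 0.71). Single mixture arrays reached 4.96 with 50 cones (4.13 and 3.84 on the others), 4.91 with 75 (3.79 on both others) and 5.06 with 100 (3.44 and 3.78). Rbfox3, the neuronal nuclear antigen NeuN, was not called either, with -0.15 in cones against starburst cells, -0.05 in Arc against starburst cells and 0.10 in Arc cells against cones.

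Nova1, a regulator of inhibitory synapse transcripts and an autoantigen of a paraneoplastic movement disorder, was low on this array and differed between cones and starburst cells. It read 3.29, 2.26 and 2.39 on the Arc arrays, 2.08, 1.76 and 1.95 on the pure cone arrays, and 2.95, 3.37 and 3.27 on the pure starburst arrays. All 3 cone arrays were under the median and under every Arc and starburst array, while the first Arc array stood within the starburst range and the other 2 below it. The log2 fold change was -1.27 ± 0.30 in cones against starburst cells (adjusted p = 0.00561), called under all 13 alternatives. Because the cone mean was 1.93, its size depends on the background. Arc cells differed by -0.55 from starburst cells (interval -1.17 to 0.07, 0.404) and by 0.72 from cones (0.09 to 1.34, 0.108).

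Nova2, its paralog in cortical and other neurons, had the smallest range of group means of the 10 genes, 3.36 to 3.73. It read 3.44, 3.43 and 3.49 on the Arc arrays, 3.46, 3.17 and 3.46 on the pure cone arrays, and 3.56, 3.25 and 3.81 on the pure starburst arrays. The 3 groups overlapped. Their differences were -0.09 for Arc against starburst cells (interval -0.45 to 0.27), 0.09 for Arc cells against cones (-0.27 to 0.45) and -0.18 for cones against starburst cells (-0.54 to 0.18). Each interval lay within 1 log2 unit of 0.

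Msi2, one of the Musashi proteins of photoreceptors and stem cells, had its highest group mean in pure cones, as did its paralog Msi1. Msi2 read 4.27, 4.72 and 5.08 on the Arc arrays, 5.87, 5.71 and 4.84 on the pure cone arrays, and 4.62, 4.88 and 4.54 on the pure starburst arrays. The first and second cone arrays lay above all Arc and starburst arrays, and the third lay within their range. The difference was 0.79 ± 0.28 in cones against starburst cells (adjusted p = 0.0613) and -0.78 ± 0.28 in Arc cells against cones (0.0534), so neither was called. Without the third pure cone array, which stood apart in rod, bipolar and cone markers, both passed the threshold. They were then 1.11 (0.00965) in cones against starburst cells and -1.10 (0.00838) in Arc cells against cones. Quantile normalization of the deposited values gave 1.03 (0.0119) and -1.08 (0.00734). Each difference was called under only 3 of 13 alternatives. Over all 13, the values ran from 0.59 to 1.11 in cones against starburst cells (limma adjusted p up to 0.228). In Arc cells against cones they ran from -1.10 to -0.58 (up to 0.248).

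Msi1 read 2.87, 2.99 and 3.03 on the Arc arrays, 2.94, 3.27 and 3.63 on the pure cone arrays, and 3.06, 2.48 and 3.08 on the pure starburst arrays. The groups overlapped. The difference was 0.41 in cones against starburst cells (interval -0.03 to 0.84, adjusted p = 0.226) and -0.32 in Arc cells against cones (-0.75 to 0.12, 0.345). Between Arc and starburst cells, Msi1 differed by 0.09 and Msi2 by 0.01, and neither was called.

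Celf4, a neuronal member of the Celf family that binds many synaptic mRNAs, was ordered Arc, starburst, cone. It read 6.10, 5.81 and 6.10 on the Arc arrays, 3.62, 3.59 and 3.44 on the pure cone arrays, and 5.23, 4.73 and 4.96 on the pure starburst arrays. The 3 groups did not overlap. The log2 fold change was 2.45 ± 0.25 in Arc cells against cones (adjusted p = 2.85e-07) and -1.42 ± 0.25 in cones against starburst cells (3.33e-04), both called under all 13 alternatives. In Arc against starburst cells it was 1.03 ± 0.25 (0.0129), close to the threshold. This last call was lost with quantile normalization (0.91, 0.052), without the first (0.98, 0.0582) or the third Arc array (0.98, 0.0528) and without the second pure starburst array (0.91, 0.0769).

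Celf2, another member of the family, showed the cone difference but not the one between amacrine types. It read 6.42, 6.18 and 6.30 on the Arc arrays, 4.88, 5.34 and 4.32 on the pure cone arrays, and 6.40, 6.45 and 6.46 on the pure starburst arrays. The log2 fold change was -1.59 ± 0.24 in cones against starburst cells (adjusted p = 6.42e-05) and 1.45 ± 0.24 in Arc cells against cones (1.33e-04). In Arc against starburst cells it was -0.13 (interval -0.63 to 0.36, 0.578 unadjusted). Whether Celf4 and Celf2 differ in that contrast was not tested. Celf1, Celf3, Celf5 and Celf6 were called in none of the 3 comparisons, with log2 fold changes between -0.40 and 0.32.

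The titration gave a related reading of the cone difference. It is not independent, since its 15 arrays include the pure groups and the mixtures were sorted from the same pools. The slope of the log2 level on cone share, over 15 arrays, was called lower for the same 4 genes and higher for none, where 5.65% of all genes had a called lower slope, 2.55% a higher and 8.2% either. From no cones to all cones, Rbfox1 fell by 1.57 on the log2 scale (SE 0.34, limma adjusted p = 0.00433), and Celf4 by 1.40 (SE 0.19, 1.45e-04). Elavl3 fell by 1.29 (SE 0.35, 0.0184) and Nova1 by 1.24 (SE 0.26, 0.0034). The call of Elavl3 was lost without the first pure starburst array (0.0612), the second pure cone array (0.0588) or the third (0.0514), and on the linear scale (0.0768). The pure arrays carry much of these slopes. In the arrays with 50, 100 and 150 cones alone, limma called 0 of the 12441 genes (1455 genes and 1 of the 9 had an unadjusted p under 0.05), and the slopes were -1.32 for Celf4, -1.15 for Nova1, -0.89 for Rbfox1 and -0.09 for Elavl3.

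Each mixture was then set beside the level computed from the linear-scale means of the pure groups, weighted by cell number. This is a description, and the mixtures share the pure groups and, in the titration, the pools. Rbfox1 stood above this level on 17 of 18 mixture arrays, Celf4 on 12, Elavl3 on 11 and Nova1 on 5. Rbfox1 read 5.61, 4.92 and 4.99 with 100 cones, where 4.58 was computed. These values overlap with those of the pure starburst arrays. It read 4.10, 4.13 and 5.31 with 183 cones, where 3.73 was computed.

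The same can be given as a position, in percent of the linear-scale distance from the pure starburst mean to the pure cone mean. With 50, 75, 100, 150, 157 and 183 cones, Rbfox1 stood at 3.19%, -19.5%, -1.01%, 45.2%, 52.7% and 46.6%. The stated cone shares were 25%, 37.5%, 50%, 75%, 78.5% and 91.5%. Up to an equal mixture, the group means of Rbfox1 thus stayed near that of pure starburst cells. The median position over all 720 genes called lower in cones was 24.0%, 23.2%, 44.2%, 65.0%, 74.3% and 78.1%. Between 4.17% and 20.3% of those genes had a lower position than Rbfox1, depending on the mixture. No test was made of this difference.

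Celf4 followed the computed level closely. Its group means differed from it by -0.14 to 0.16, and its positions were 34.1%, 27.4%, 52.1%, 80.1%, 71.7% and 78.6% in the same order of mixtures. Nova1 lay at 77.5% with 75 cones and 85.9% with 100, nearer to the cone end, though its levels there (2.01 to 2.61) were under the median of all values. Elavl3 had no steady course, with 50.7% at 50 cones and -14.9% at 75, and its arrays ran from 3.33 to 4.65 in the first of these groups and from 4.07 to 5.51 in the second.

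**Figure D3:**
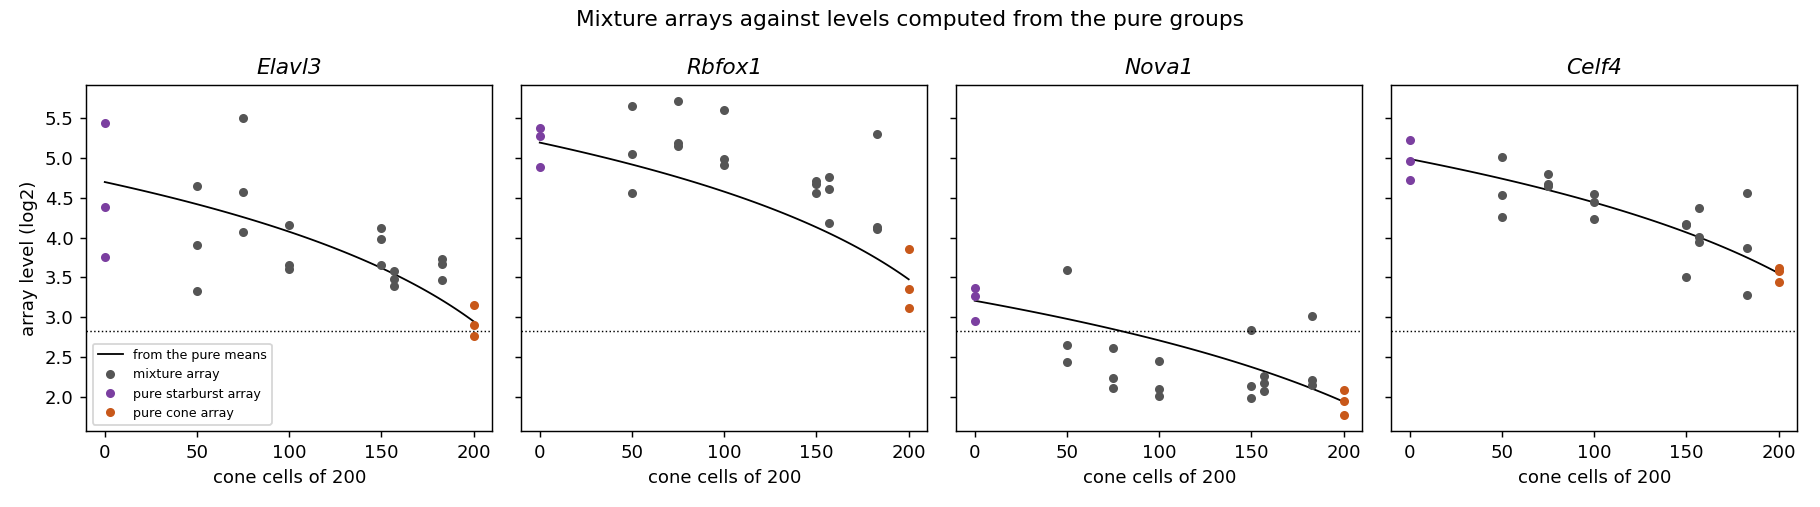
Array levels (log2) of the 4 genes called lower in cones, against the number of cones among 200 cells. Lines are levels computed from the pure means on the linear scale, points are arrays, and the dotted line is the median of all values (2.83); Rbfox1 lies above its line on 17 of 18 mixture arrays, Celf4 stays within 0.16 of it in group means.

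Each X mixture was compared with the mean of its neighbouring titration groups, weighted by cone share on the log2 scale. Linear mixing of RNA puts a mixture above this reference wherever the neighbours differ. A positive value therefore does not by itself show a poor fit to the titration. None of the 9 genes was called for 75, 157 or 183 cones (limma). Across all genes 0.00804% were called with 75 cones (1 gene, lower), and 0.0402% with 157 cones (5 genes; 0.0241% higher and 0.0161% lower). With 183 cones 0.281% were called (35 genes; 0.265% higher and 0.0161% lower). At an unadjusted p under 0.05 there were 1, 0 and 1 of the 9, and 996, 1020 and 925 of all genes. The 2 were Elavl3 with 75 cones (0.83, interval 0.16 to 1.51, adjusted p = 0.505) and Rbfox1 with 183 cones (0.66, interval 0.11 to 1.21, 0.552). The value for Elavl3 was 0.44 without the second array with 75 cones, and none of the 9 genes then had an unadjusted p under 0.05 in that mixture. The value for Rbfox1 was 0.27 without the third array, which stood apart in rod markers.

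Likeness of pattern was described by Pearson's r of log2 levels over the 27 arrays, in which groups, lines and pools are shared. Among the 9 tested genes, Elavl3 and Celf4 were most alike (r = 0.74, and 0.89 over the 9 group means), followed by Elavl4 and Celf4 (0.71 and 0.77). Elavl4 and Rbfox1 had r = -0.20. Of all tested genes, those most like Elavl4 were the neuropeptide Vip (0.97), the GABA-synthesising enzyme Gad2 (0.97) and the protein kinase A subunit Prkar2b (0.96). The 3 Arc arrays hold most of the spread of Elavl4, so these values mainly record that each gene is high in Arc cells. Rbfox1 was most like the myelin glycoprotein Omg (0.90), the integrin ligand Edil3 (0.89) and the neurexin relative Cntnap2 (0.89). Celf4 was most like the ubiquitin hydrolase Uchl1 (0.92), Lnx1 (0.91) and the calcium sensor Vsnl1 (0.91), and Vsnl1 also led for Elavl3 (0.83). Nova1 was most like Osgin2 (0.80), Gipc2 (0.79) and Gpr19 (0.75). The ranges of group means of Rbfox2, Nova2, Msi1 and Msi2 were under 1 log2 unit and no partner was sought for them.

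Other regulators of splicing were called in both directions. Of 27 tested splicing regulators outside the 10 genes, 2 were higher and 1 lower in cones against starburst cells, 2 higher and 2 lower in Arc cells against cones, and 0 in Arc against starburst cells (limma; 1 at an unadjusted p under 0.05). Over all tested genes 8.42%, 10.3% and 3.55% were called in these comparisons, and the small counts of the list are not read as differing from those shares. Besides Celf2, the cone difference was called for the muscleblind protein Mbnl2 (1.42 ± 0.41, adjusted p = 0.0226) and the KH-domain protein Khdrbs3, also called SLM2 (1.17 ± 0.33, 0.0176). Each lost its call without any of 4 single arrays among 6 (up to 0.0863 and 0.0919), whereas Celf2 kept its call without any of the 6. In Arc cells against cones, Khdrbs2 was higher (1.05, 0.0289), and the poly(C)-binding Pcbp4 (-1.31, 0.00266) and Mbnl2 (-1.20, 0.0479) were lower. Leaving out single arrays ended the calls of Khdrbs2 in 3 and of Mbnl2 in 5 of 6 cases. The medians over the list were -0.05 for cones against starburst cells and 0.02 for Arc cells against cones, where all genes had -0.04 and 0.07.

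General splicing factors were counted next, against the same shares over all genes (3.55%, 10.3% and 8.42% called in Arc against starburst cells, Arc cells against cones, and cones against starburst cells). Of 11 tested SR proteins, which activate splicing broadly, 0 were called by limma in each comparison. At an unadjusted p under 0.05 there were 2 in Arc against starburst cells, 1 in Arc cells against cones and 2 in cones against starburst cells. The list medians were 0.02, 0.29 and -0.27 in the same order, where all genes had 0.03, 0.07 and -0.04. Of 15 hnRNP proteins, Hnrnph2 was lower in cones against starburst cells (-1.41 ± 0.42, 0.0278), and Hnrnph2 (1.76 ± 0.42, 0.00502) and Hnrnpd (1.21, 0.0197) were higher in Arc cells against cones. The first was lost without any of 3 single arrays and Hnrnpd without any of 4. Of 23 core spliceosome genes, Snrpg (-1.13, 0.0077) and Eftud2 (-1.10, 0.0141) were lower in cones against starburst cells, each lost without either of 2 arrays. The median in cones against starburst cells was -0.26 over the core genes and -0.13 over the hnRNP proteins. Of 15 genes of mRNA transport and translation, Syncrip was lower in Arc cells against cones (-1.04, 0.0366), lost without any of 5 arrays. In Arc against starburst cells 0 genes of these 4 lists were called by limma. At an unadjusted p under 0.05 there were 2 SR proteins, 3 hnRNP proteins, 0 core genes and 0 of transport and translation.

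Known targets were counted as gene levels, which record mRNA amount and not exon use. Of 8 tested mRNAs bound by neuronal Elavl proteins, 3 were higher and none lower in Arc against starburst cells, with a median of 0.32 (0.03 over all genes). Over all genes 2.16% were higher and 1.39% lower there. Gap43, a growth-cone protein and the classical target of Elavl4, read 7.82, 7.33 and 7.43 on the Arc arrays, 4.51, 4.79 and 4.26 on the pure cone arrays, and 3.92, 3.88 and 3.85 on the pure starburst arrays. Its Arc arrays stood apart from all others. The log2 fold change of Gap43 was 3.64 ± 0.24 in Arc against starburst cells (adjusted p = 3.78e-10) and 3.01 ± 0.24 in Arc cells against cones (8.81e-09). The acetylcholinesterase gene Ache differed by 2.46 ± 0.44 (8.86e-04) and the actin-binding kinase substrate Marcks by 2.35 ± 0.28 (3.72e-06) in Arc against starburst cells. Both were also higher in Arc cells against cones, by 2.25 and 2.81, as was the microtubule protein Mapt by 1.40 (5.87e-06). Mapt was lower in cones against starburst cells (-1.28, 2.7e-05) and did not differ in Arc against starburst cells beyond its error (0.12 ± 0.18, 0.85). Thy1 and the ganglion cell marker mean, which includes Thy1, were also higher on the Arc arrays, as given with Elavl4. Their part in these values was not tested. The calls of Gap43, Ache, Marcks and Mapt held without any single array of the 2 groups compared.

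The counts of the next lists stand beside 5.79% lower and 2.64% higher over all genes in cones against starburst cells, and 7.83% higher and 2.51% lower in Arc cells against cones. Of 7 tested mRNAs with exons under Nova control, the inhibitory synapse scaffold Gphn was lower in cones against starburst cells (-1.11, adjusted p = 0.00569), and this was lost without either of 2 arrays. Of 4 with exons under Rbfox control, the vesicle fusion protein Snap25 was lower in cones against starburst cells (-1.13 ± 0.15, 1.7e-05) and higher in Arc cells against cones (1.67 ± 0.15, 5.54e-08). Of 11 Musashi targets or genes with photoreceptor exons, 3 were higher and none lower in cones against starburst cells, with a median of 0.63 (-0.04 over all genes). They were Prom1 (1.57 ± 0.22, 3.02e-05), a protein of photoreceptor discs, the transition zone protein Cep290 (1.48 ± 0.20, 1.61e-05) and the calcium channel subunit Cacna2d4 (1.23 ± 0.26, 0.00228). Cacna2d4 fell under the threshold without the second pure cone array (0.98). In Arc cells against cones, these 3 and the glutamate transporter Slc17a7 (-1.09, 0.00896) were lower. The second call of Cacna2d4 was lost without any of 3 arrays and that of Slc17a7 without the first pure cone array. Some rod and bipolar markers moved the same way. In cones against starburst cells 2 of 10 rod markers (Sag and Gngt1) were called higher and none lower, and of 8 tested bipolar markers Cabp5 and Otx2 were higher and Isl1, also a starburst marker, was lower. In Arc cells against cones 4 rod and 5 bipolar markers were lower and none higher. The bipolar markers Vsx1 (-0.08), Grm6 (-0.05) and Trpm1 (-0.30) were not called there. The rod marker mean was 4.56 to 5.01 on Arc arrays, 6.02 to 7.34 on pure cone arrays and 5.23 to 5.77 on pure starburst arrays. The bipolar marker mean was 2.85 to 3.05 on Arc arrays, 3.87 to 4.68 on pure cone arrays and 3.61 to 4.44 on pure starburst arrays. It includes Isl1, which read 2.79 to 3.63 on Arc, 3.54 to 5.82 on pure cone and 8.74 to 9.15 on pure starburst arrays. This mean is thus not a measure of bipolar cells alone. The part of rod and bipolar cells in the values of the Musashi list was not tested. That list holds genes with exons of photoreceptors, so its direction is not independent of the cell type.

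**Figure D4:**
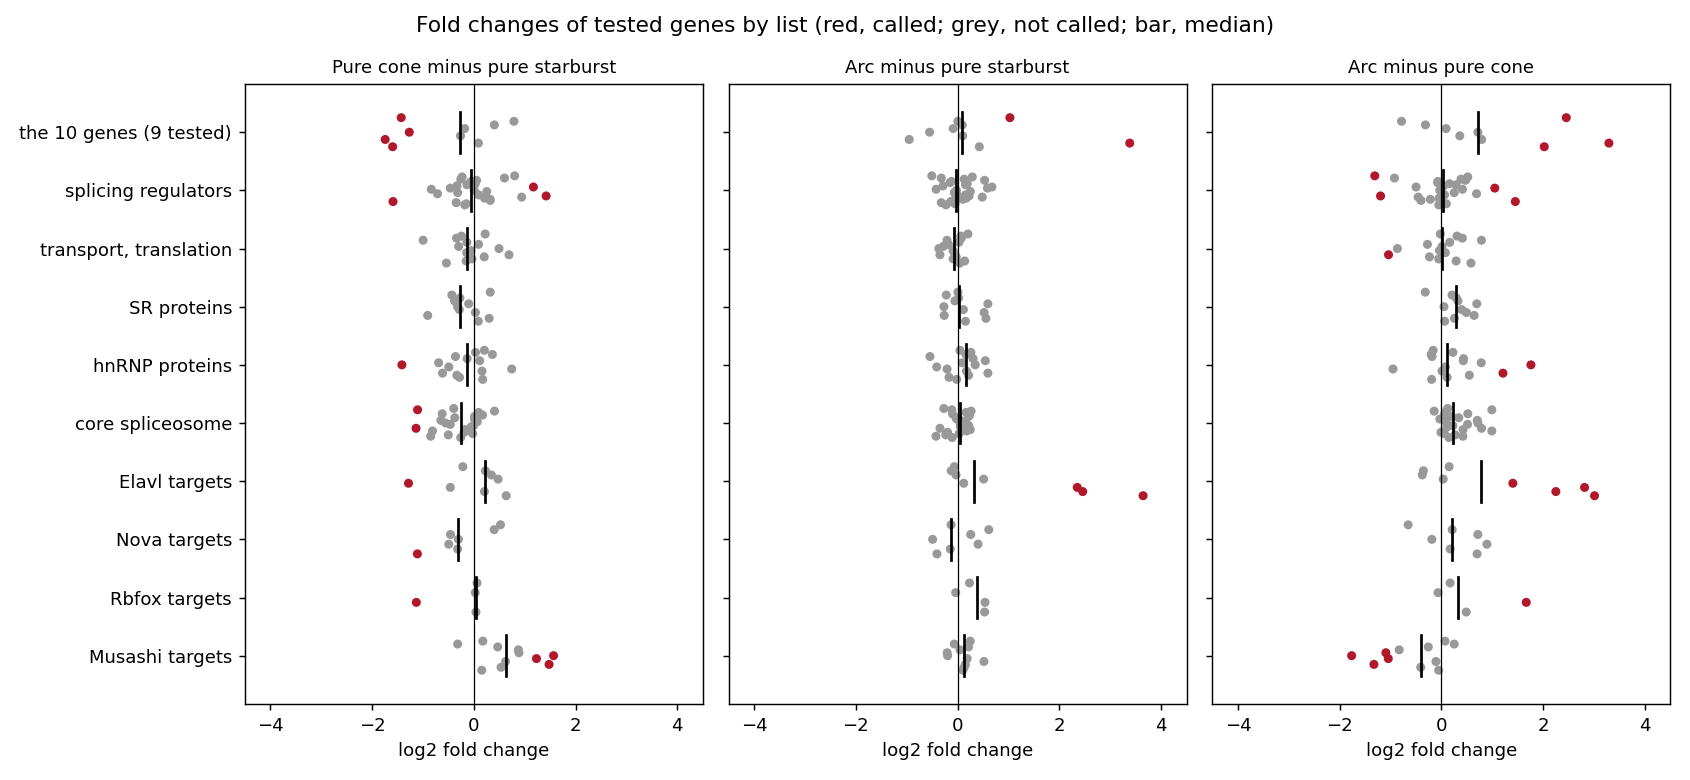
Log2 fold changes of all tested genes of 9 lists and of the 10 genes (9 tested), with 1 row per list, in 3 comparisons; red points were called, grey points were not, and black bars are medians. Gap43, Ache and Marcks are the 3 called Elavl targets above 2 in Arc against starburst cells, and no SR protein is red.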

How the data were processed

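Deposited values of 27 arrays were analysed. They are log2 values that the authors made by RMA; the submitters' processing notes name oligo, R 2.11.1 and mm9; which arrays were normalized together is not given in the sources used here. Array medians lay between 2.78 and 2.89, replicates correlated at 0.935 to 0.979, and 0 pairs of arrays were identical. RMA flattens differences near the background, which can understate folds of dim genes. Of 22347 probe sets, 19446 carried 1 gene symbol and were used, the brightest of a gene's probe sets where there were several (133 genes). The 12441 genes above 2.83 on at least 3 arrays were tested.

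Limma 3.58.1 in R 4.3.3 was fitted to 9 group means (18 residual degrees of freedom), and to cone share over 15 titration arrays for the slope (13). Calls needed a Benjamini-Hochberg adjusted p under 0.05 over all tested genes and a log2 fold change of 1 or more in size. The steps were tested on simulated data.

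Named genes were the 10 members and their paralogs. The 3 genes most like a member over 27 arrays were named where its group means spanned at least 1 log2 unit. Of each list, the called genes that changed most in a comparison were named (at most 3 higher and 3 lower). Chat and Slc18a3 were named as checks, and some uncalled markers to show the spread of a list. The members and lists were chosen with earlier results of these data known. Replicate numbers come from the labels. The design states that the titration was sorted 3 times from different mice, but does not tie X mixtures or Arc arrays to those pools. The replicate block was an alternative. Other alternatives were no filter, quantile normalization, the dimmest probe set, a variance trend, only the compared groups, a linear scale, and single arrays left out. The dimmest probe set could not change the levels of the 10 members, which had 1 probe set each.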

Additional observations from a re-analysis of the deposited data

How the results depend on the processing

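The third arrays of groups with cones, and the slope from titration mixtures alone, are settings chosen after seeing the data. With titration mixtures only, the slope had 0 genes called and 0 of the 9 genes called, with -0.30 for Elavl4 and -0.10 for Msi2, opposite in sign to the slope over 15 arrays. It has fewer arrays and a smaller range of cone share. Without the third arrays, Elavl4 had -0.25 in cones against starburst cells and a slope of -0.33. Quantile normalization left 1 of the 9 genes called in Arc against starburst cells, and turned the sign of uncalled values near 0: Msi2 in that comparison (-0.056), the Elavl4 slope (-0.0051) and Rbfox2 with 75 cones (0.028). With 75, 157 and 183 cones it called 3, 2 and 21 genes. With 157 cones, 0 genes were called by limma without the filter and 0 with the replicate block (1509 and 1101 at an unadjusted p under 0.05).

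With the replicate block, cones against starburst cells gave 1081 genes called and 4 of the 9 genes, and the block changed no call of any of the 9 genes. Deviations of same-numbered pure cone and pure starburst arrays correlated at 0.03, 0.01 and 0.06, whereas those with 183 cones and of pure cones correlated at 0.20, 0.13 and 0.30. The third arrays with 157 cones and of pure cones also correlated at 0.25. Of 12 pairs of groups checked, 1 had all 3 correlations over 0.1, so pairing by number differed between pairs of groups. Its other counts were 449 genes for Arc against starburst cells, 1331 for Arc cells against cones and 1017 for the slope.

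With single arrays left out, 1 to 2 of the 9 genes were called in Arc against starburst cells, and 4 to 7, 3 to 9 and 16 to 33 genes with 75, 157 and 183 cones. Uncalled values that changed sign ranged as follows. In cones against starburst cells Elavl4 ran from -0.25 to 0.32. In Arc against starburst cells Rbfox2 ran from -0.028 to 0.22, Nova2 from -0.23 to 0.047, Msi1 from -0.11 to 0.20 and Msi2 from -0.19 to 0.21. In Arc cells against cones Nova2 ran from -0.0075 to 0.14, and the Elavl4 slope from -0.28 to 0.21. With 75 cones Elavl4 ran from -0.10 to 0.13, Rbfox2 from -0.41 to 0.15 and Nova2 from -0.052 to 0.19. With 157 cones Rbfox1 ran from -0.084 to 0.20. With 183 cones Elavl4 ran from -0.24 to 0.37, Rbfox2 from -0.11 to 0.069, Nova2 from -0.14 to 0.011, Msi1 from -0.043 to 0.071 and Celf4 from -0.10 to 0.54. The Elavl3 slope lost its call without the first pure starburst array (-0.97, limma adjusted p = 0.0612), the second (-1.15, 0.0588) or the third pure cone array (-1.20, 0.0514), and on the linear scale (-64.5% of the larger fitted end, 0.0768). The cause of these changes was not tested. Levels under 2.83 are near the background, which limits Elavl2, Elavl4 outside Arc cells, and Nova1.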
